A study of Homo sapiens with 28 samples.

Results

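The genes described are 6 fibroblast genes of the extracellular matrix, COL1A1, COL1A2, COL3A1, FN1, POSTN and ELN, taken as fixed windows of build hg19 in 28 lists of CUT&RUN peaks. CUT&RUN uses an antibody to bring a nuclease to a protein on chromatin and sequences the DNA cut out beside it. A peak belonged to a gene when it overlapped the gene's window, and no measured value entered that choice. The windows ran from 48230000 to 48310000 on chromosome 17 for COL1A1, from 93970000 to 94110000 on chromosome 7 for COL1A2 and from 189790000 to 189930000 on chromosome 2 for COL3A1. Those of FN1, POSTN and ELN ran from 216180000 to 216350000 on chromosome 2, from 38090000 to 38220000 on chromosome 13 and from 73390000 to 73530000 on chromosome 7. Together they held 740 of the 1123337 peaks on chromosomes 1 to 22 and X, of which 48 were FOXF1 peaks in 8 libraries, 253 were p-c-JUN peaks in 6 libraries and 439 were H3K27ac peaks in 14 libraries.

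Every library came from IMR-90 ER:Ras cells, an established line of human fetal lung fibroblasts with an inducible Ras oncogene that 100 nM 4-hydroxytamoxifen switches on, given for 6 days to bring on senescence. The groups were proliferating cells (Pro), senescent cells (Sen), Sen cells with siRNA against FOXF1 and FOXF2 (siFOXF1/2), Sen cells with knockdown of JUN family members (JUN knockdown), and Sen cells with siRNA against p300 and CBP (sip300/CBP) beside Sen cells of their own. Each group had 2 libraries except H3K27ac in Sen cells, which had 4. H3K27ac was measured in all groups, FOXF1 in Pro, Sen, siFOXF1/2 and JUN knockdown cells, and p-c-JUN in Pro, Sen and siFOXF1/2 cells. The Pro samples carried the same treatment and cell type tags as the Sen samples and were assigned by their titles. Titles of the JUN knockdown samples name cJUN and JUND, and their treatment tags name JUNB as well. Libraries numbered 23 to 28 (H3K27ac Sen replicates 3 and 4 and all JUN knockdown libraries) have later record numbers than the first 22, and are called the second deposit. The labels do not state whether replicates were separate cultures, so the p-values describe spread between libraries that may be technical. The files hold no expression values, so transcript levels of the 6 genes and the identity of the cells were not checked.

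Some lists stood apart from the others by length. The FOXF1 lists held 3441 and 11061 peaks in Pro cells and 13603 and 40537 in Sen cells, but 186 and 133 after siFOXF1/2 and 378 and 883 after JUN knockdown. The narrowest peak was 76 bp in both siFOXF1/2 lists of FOXF1 and 182 to 245 bp in the other 26 lists. The H3K27ac lists of the sip300/CBP experiment held 1549 to 8234 peaks against 26694 to 89329 in the other H3K27ac lists. The number of mapped reads is unknown, so a peak missing from a short list may lie under its detection limit.

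COL1A1 and COL1A2 encode the chains of type I collagen, the main fibrillar collagen of connective tissue, and COL3A1 encodes type III collagen, which forms fibrils with it. FN1 encodes fibronectin, an adhesive glycoprotein on which cells assemble matrix, POSTN encodes periostin, a matricellular protein of remodelling tissue, and ELN encodes elastin, the core of elastic fibres. FOXF1 is a forkhead transcription factor of lung mesenchyme, phosphorylated c-JUN (p-c-JUN) is an active subunit of the AP-1 factors, and H3K27ac is an acetylated histone found at active promoters and enhancers. Lung fibroblasts make all 6 proteins, and AP-1 factors are known to act at enhancers that open in Ras-induced senescence.

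Promoter sequences were at hand for FN1 and POSTN, and are shown with their matches to the motifs named below. The 250 bases before each RefSeq transcription start are given 5′ to 3′ on the gene's strand in build GRCh38.p14, at chr2:215436069-215436318 (minus strand) for FN1 and chr13:37598769-37599018 (minus strand) for POSTN. Capitals mark matches to the AP-1 motif TGANTCA, the cyclic AMP response element TGACGTCA and the core forkhead motif TAAACA, searched on both strands:
FN1: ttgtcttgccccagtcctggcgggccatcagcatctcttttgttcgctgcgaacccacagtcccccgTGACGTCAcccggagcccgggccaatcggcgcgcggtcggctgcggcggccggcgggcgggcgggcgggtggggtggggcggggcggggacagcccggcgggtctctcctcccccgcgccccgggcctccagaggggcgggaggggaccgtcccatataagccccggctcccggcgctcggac
POSTN: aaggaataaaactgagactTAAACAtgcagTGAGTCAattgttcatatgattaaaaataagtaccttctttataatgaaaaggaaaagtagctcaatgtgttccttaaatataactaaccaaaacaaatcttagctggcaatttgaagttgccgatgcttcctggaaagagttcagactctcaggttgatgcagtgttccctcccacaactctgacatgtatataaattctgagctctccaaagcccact
The FN1 sequence held the cyclic AMP response element at −183 to −176 from the start, and the POSTN sequence held the forkhead motif at −231 to −226 beside the AP-1 motif at −220 to −214. Of 35116 promoters of the same length, 6.57% held the AP-1 motif, 1.65% the cyclic AMP response element and 11.0% the forkhead motif. The peaks are in hg19 and were not placed on these sequences, so a match describes the letters and not a bound site.

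The number of peaks in each window is plotted by library, with the 3 antibodies in rows.

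**Figure D1:**
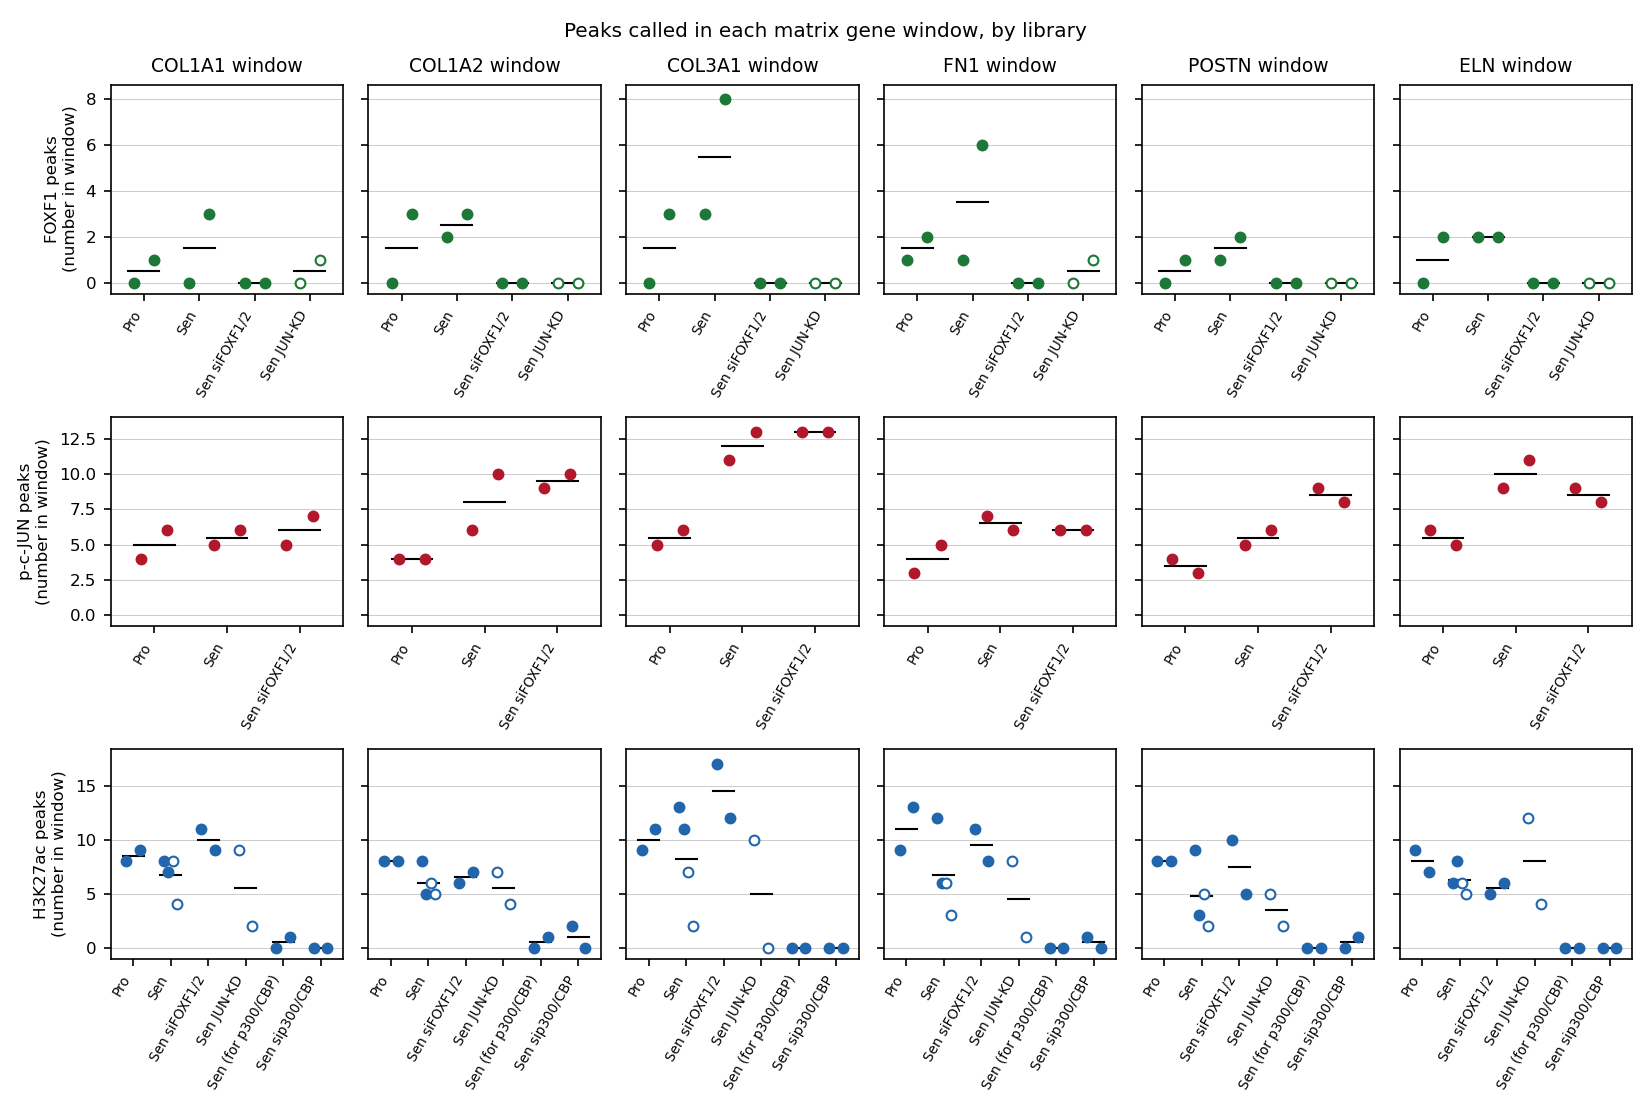
Number of peaks called in each gene's window (vertical axis) in each library, by antibody (rows) and group (horizontal axis); points are libraries, open points are libraries of the second deposit and short lines are group means. FOXF1 points are at 0 after siFOXF1/2 in every window, p-c-JUN points of Sen cells lie above those of Pro cells in the COL1A2, COL3A1, FN1, POSTN and ELN windows in numbers not scaled to list length, and H3K27ac points of Pro and Sen cells overlap in most windows.

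The first question was where FOXF1 sat near the matrix genes in proliferating and in senescent cells. The 6 windows held 1 and 12 FOXF1 peaks in the Pro libraries and 9 and 24 in the Sen libraries, so the groups overlapped. Of 29 distinct FOXF1 regions over all 8 libraries (peaks joined by an overlap of at least 1 bp), 18 were held by 1 library only. Both Sen libraries held 8 regions, of which 3 lay in the COL3A1 window, 2 in the COL1A2 window and 1 each in the FN1, POSTN and ELN windows. The COL1A1 window held none in both, although Sen replicate 2 had 3 peaks there.

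The fibrillar collagen windows carried 5 of the 8. The leading one, at 189833706 to 189834288 on chromosome 2 in the COL3A1 window, had 22 and 34 fragments at its summit in Sen replicates 1 and 2, 17 in Pro replicate 2 and no peak in Pro replicate 1. Fragment numbers were solved from the deposited fold enrichment and p of each peak and came out whole (within 0.01) for 100% of the 740 peaks. Where the first solution was not whole, whole numbers were tried and the closest match to p was kept. Wholeness is thus in part set by the method. The leading COL3A1 region was the best placed of the windows in Sen replicate 1, at place 754 of 13603 by −log10 q. The other regions of the COL3A1 window, at 189924916 to 189925566 and 189879305 to 189879772, had 9 and 16 and 7 and 16 fragments in the Sen libraries. COL5A2 is the next gene from COL3A1 toward higher coordinates in the RefSeq gene order. Regions are named after their window, and whether one lies in that gene or in a neighbour was not resolved. In the COL1A2 window, the region at 93997774 to 93998305 had 15 and 19 fragments and that at 94004804 to 94005294 had 10 and 16. All 5 collagen regions also had a peak in Pro replicate 2, with 10 to 17 fragments, and none had one in Pro replicate 1.

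The region at 38114295 to 38114938 on chromosome 13, in the POSTN window, was the only one with a FOXF1 peak in both Sen libraries and in neither Pro library (a gained region), with 15 and 27 fragments and fold enrichments over the local background of 7.91 and 10.1. The FN1 region at 216325427 to 216325871 on chromosome 2 was the only one held by all 4 libraries, with 9 and 12 fragments in Pro and 11 and 10 in Sen cells. The ELN region at 73512420 to 73512784 on chromosome 7 had 11 and 13 fragments in Sen cells and 7 in Pro replicate 2. At POSTN the groups thus did not overlap in whether a peak was called, while at FN1 their fragment numbers overlapped.

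Counted over the windows, 1 of 27 regions was gained against 13.1% of all regions, none was lost (both Pro libraries and neither Sen library) against 0.35%, and 1 was kept in all 4 libraries against 4.5%. Of the 8 regions of Sen cells, 7 were held by Pro replicate 2 and 1 by Pro replicate 1, against 45.7% and 19.8% of such regions genome-wide. On the log2 scale, with 0.5 added to each library's peak number, the difference of Sen minus Pro was 1.82 ± 1.68 (SE, n = 2 and 2; p = 0.667, exact permutation test, two-sided, where 6 arrangements allow no p under 0.333). It fell to 0.042 with every list limited to its 3441 best peaks. Per 10000 peaks of its list, the windows held 2.91 and 10.8 FOXF1 peaks in Pro cells and 6.62 and 5.92 in Sen cells, which overlapped. Gained regions numbered 14 without Sen replicate 1, 2 without Sen replicate 2 and 7 without Pro replicate 2, and lost regions 2 without Pro replicate 1.

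The map of called peaks shows where in each window the 3 antibodies met.

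**Figure D2:**
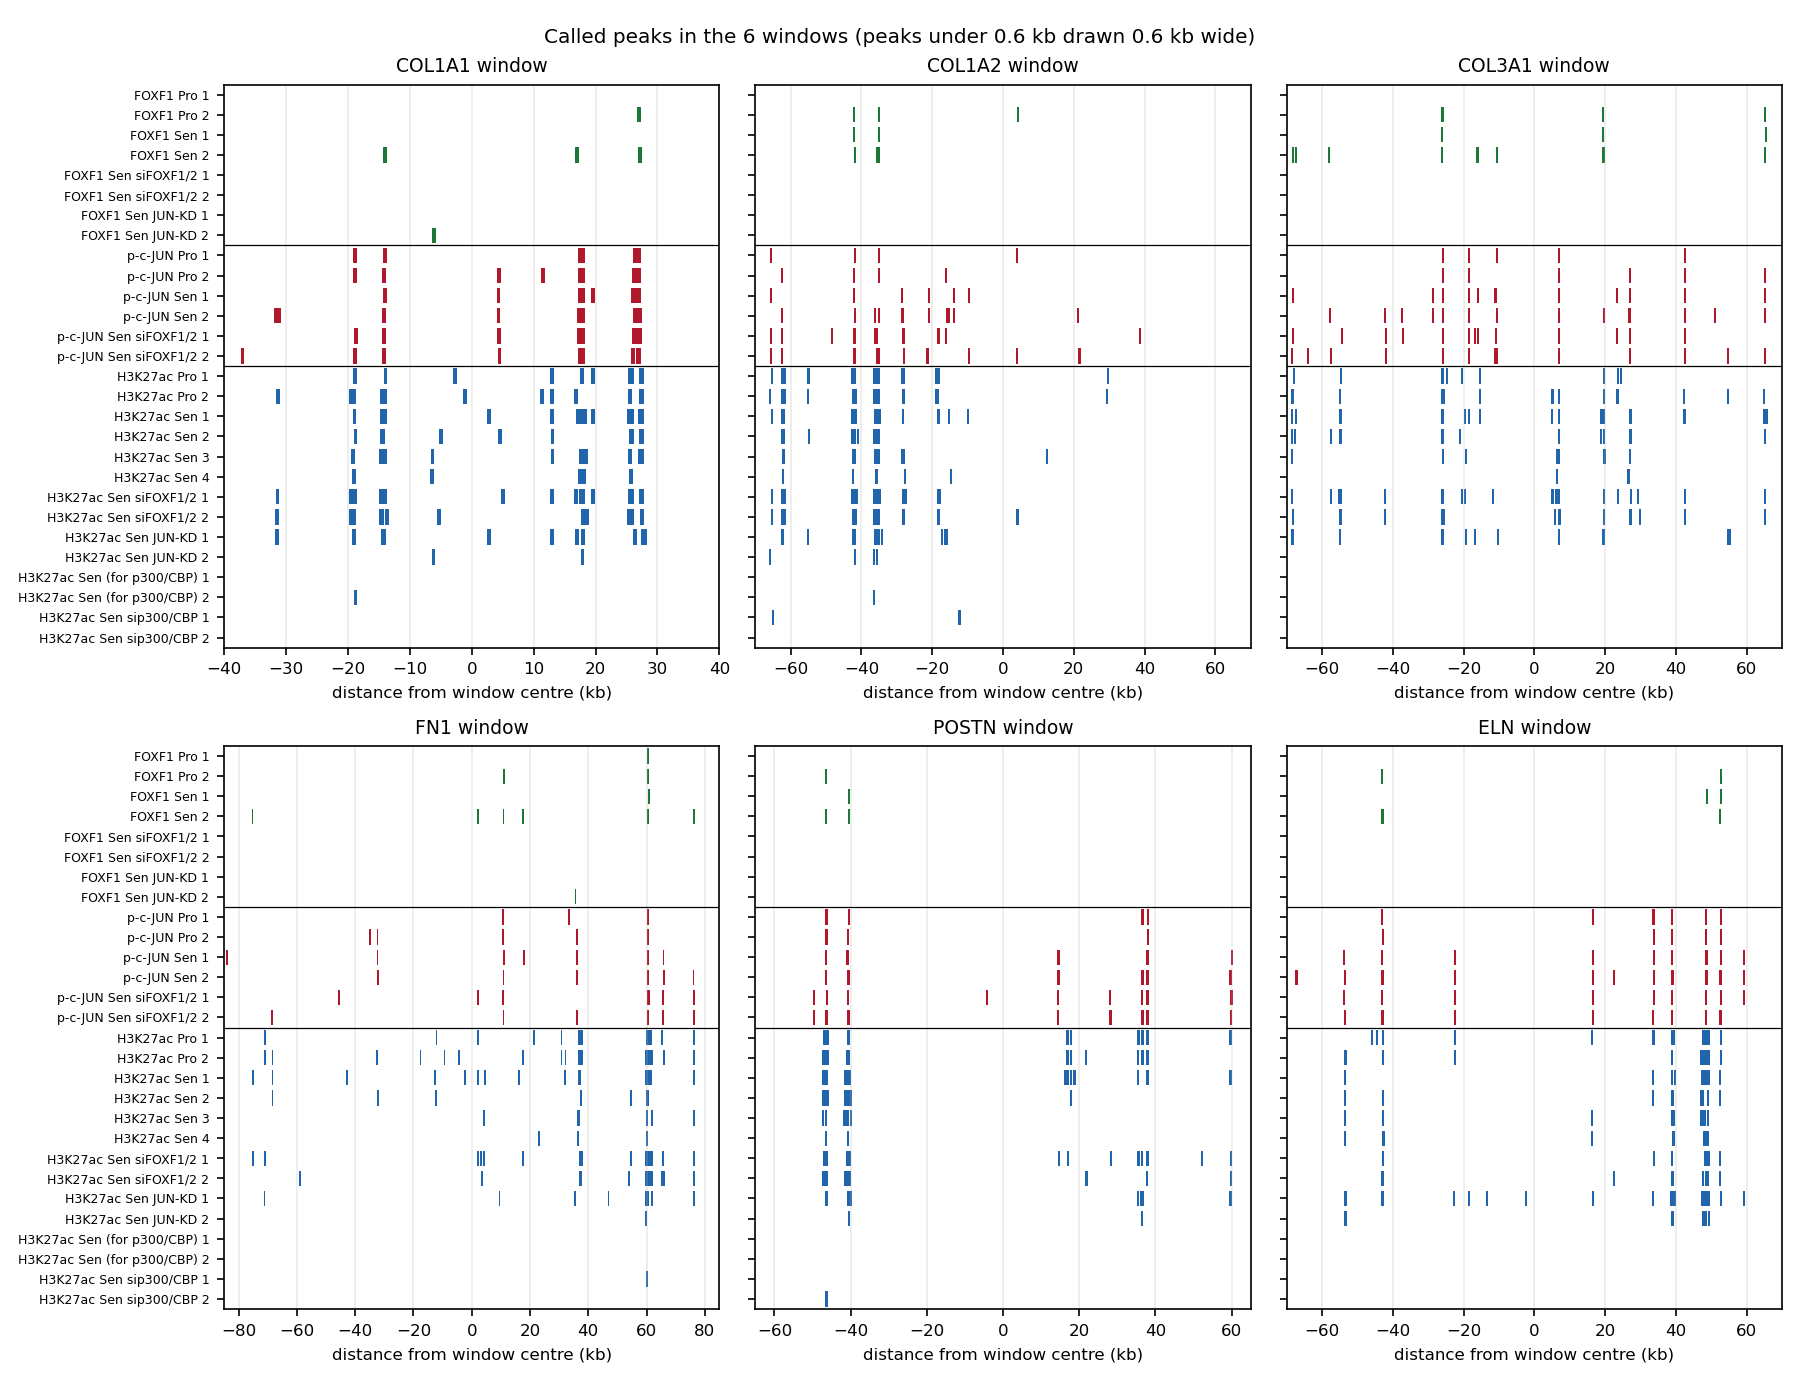
Called peaks (coloured bars) in the 6 windows by distance from the window's centre (horizontal axis, kb) and library (vertical axis; FOXF1 in green, p-c-JUN in red, H3K27ac in blue). Columns of bars that line up across colours mark the regions held by several antibodies, such as the pair toward the left of the COL1A2 window and the pair at the left of the POSTN window; the right part of the COL1A2 window holds few peaks.

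The 8 FOXF1 regions of Sen cells were set beside the peaks of the other antibodies. All 8 overlapped an H3K27ac peak in both first-deposit Sen libraries, against 65.9% of FOXF1 regions genome-wide. In the second-deposit Sen libraries, 2 of the 8 had H3K27ac in both (27.3% genome-wide) and 3 in neither (44.8%). None had it in either Sen library of the sip300/CBP experiment, as was so for 89.0% genome-wide. A p-c-JUN peak in both Sen libraries overlapped 6 of 8, near the genome-wide share of 73.7%. The 2 without p-c-JUN in both were the COL1A2 region at 94004804 and the COL3A1 region at 189879305, each with a p-c-JUN peak in Sen replicate 2 only. In the other 6 regions, the FOXF1 summit lay 3 to 113 bp from the nearest p-c-JUN summit of the same replicate number in replicate 1. In replicate 2 the distance over all 8 regions was 20 to 240 bp. The ELN summits lay 3 bp apart in replicate 1 and 59 bp in replicate 2, where those of the COL3A1 region at 189924916 (20 bp) and the COL1A2 region at 93997774 (43 bp) were closer.

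In proliferating cells, 7 of the 8 regions had an H3K27ac peak in both Pro libraries (73.1% genome-wide) and 6 had p-c-JUN in both (41.8%). The POSTN region, which had no FOXF1 peak in Pro cells, had 29 and 36 H3K27ac fragments and 7 and 12 p-c-JUN fragments there. In Sen cells it had 60 and 36 H3K27ac fragments, so those ranges touched, and 26 and 23 p-c-JUN fragments, above both Pro libraries. These counts are not scaled to sequencing depth.

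**Figure D3:**
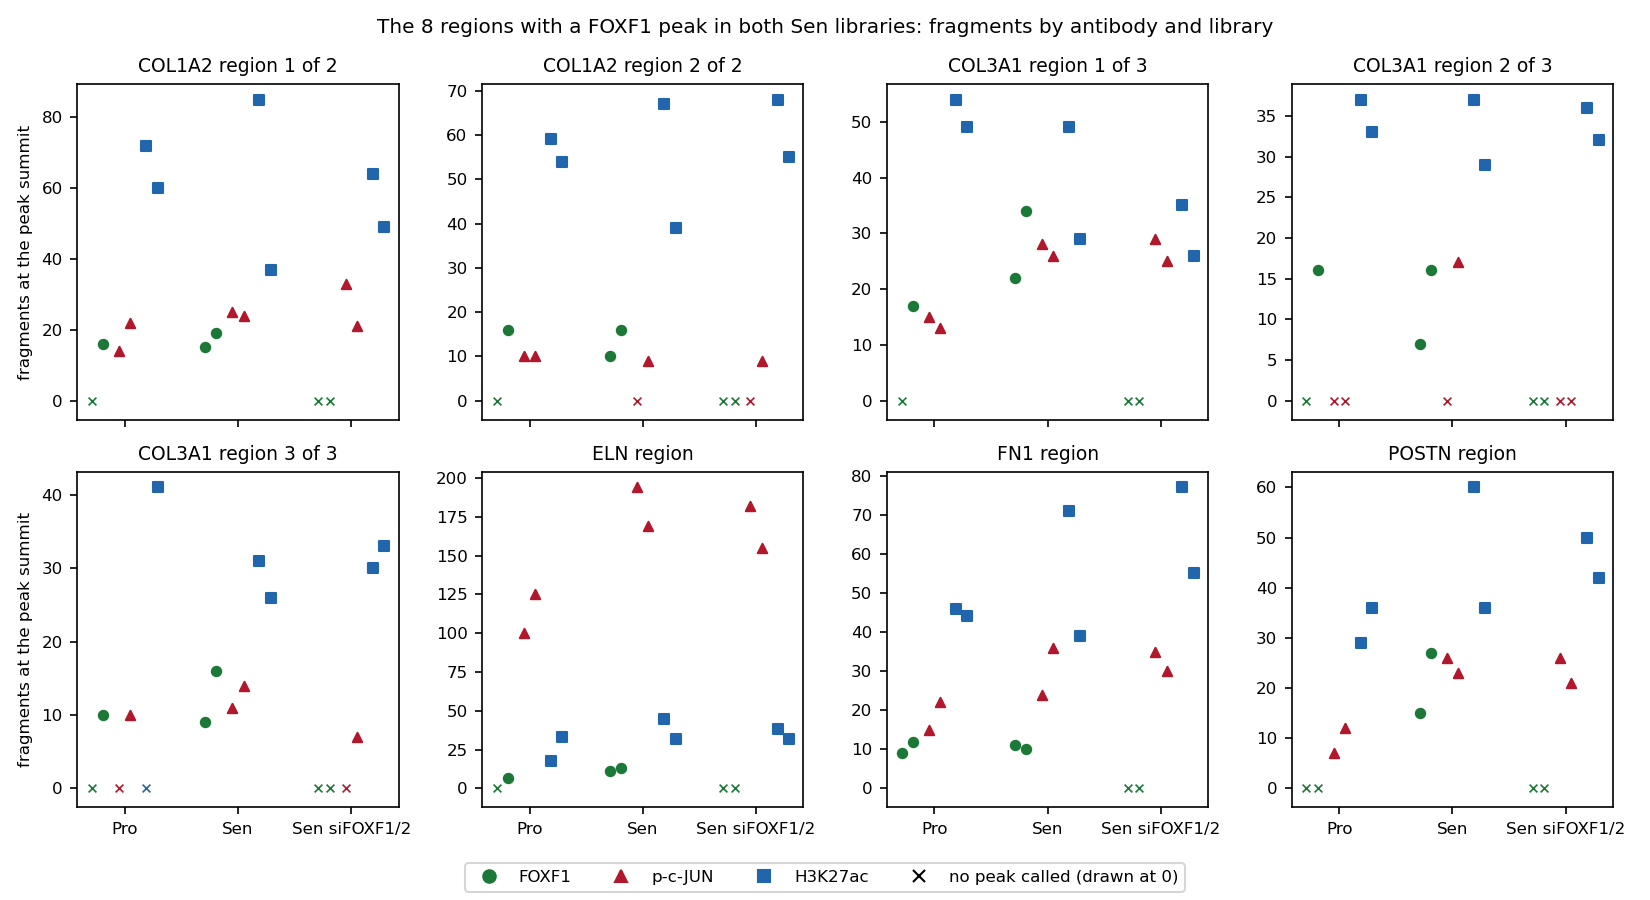
Fragments at the peak summit (vertical axis) in the 8 regions with a FOXF1 peak in both Sen libraries, for FOXF1 (green circles), p-c-JUN (red triangles) and H3K27ac (blue squares) in both libraries each of Pro, Sen and Sen siFOXF1/2 cells, first-deposit libraries only; crosses at 0 mark libraries with no called peak, and vertical scales differ. In every panel the FOXF1 points of siFOXF1/2 cells are crosses while their H3K27ac squares lie between 26 and 77 fragments.

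After siFOXF1/2, no FOXF1 peak was called in any of the 6 windows in either library. All 8 regions of Sen cells were therefore lost, out of 25 regions (26.2% genome-wide), none was gained (0.0607%) and none was kept (0.121%). Genome-wide, 99.4% of the 11287 FOXF1 regions held by both Sen libraries likewise had no peak in either siFOXF1/2 library. In the Sen lists the 8 window regions had placed from 754 to 26494, with 7 to 34 fragments. Knockdown lists of 186 and 133 peaks would hold 0.117 and 0.0834 window peaks at the Sen lists' share of 6.27 per 10000, which is under 1 peak for lists this short.

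Peak number in the windows differed by −4.93 ± 0.683 on the log2(peaks + 0.5) scale (SE, n = 2 and 2; p = 0.333, exact permutation test, two-sided, which can give no smaller p here), a value set by the 0.5 because both knockdown libraries were at 0. With every list limited to its 133 best peaks, no window region was lost, since the Sen lists then held none, and 24 regions were lost when Sen replicate 1 was left out.

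JUN knockdown left 0 and 2 FOXF1 peaks in the windows, neither of them in a region of the Sen lists. Replicate 2 had a peak at 48263693 to 48264244 on chromosome 17 in the COL1A1 window (25 fragments, fold enrichment 3.21) and one at 216300483 to 216300815 on chromosome 2 in the FN1 window (23 fragments, 5.69). The same 8 regions were lost, out of 27 (25.4% genome-wide), since this comparison uses the same Sen libraries as the last, and none was gained (0.148%) or kept (0.194%). Of the 11287 FOXF1 regions held by both Sen libraries genome-wide, 97.3% likewise had no peak in either JUN knockdown library. Lists of 378 and 883 peaks would hold 0.237 and 0.553 window peaks at the Sen share.

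The log2 difference in peak number was −3.77 ± 1.35 (SE, n = 2 and 2; p = 0.333, exact permutation test, two-sided, which can give no smaller p here), and it turned to 0.79 with lists of 378 peaks, which left no region to lose. Lost regions numbered 24 without Sen replicate 1, and gained regions 2 without knockdown replicate 1. The Sen lists came with the first deposit and the knockdown lists with the second, and the effects of knockdown and of deposit cannot be told apart.

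The windows held 26 and 29 p-c-JUN peaks in Pro cells, 43 and 52 in Sen cells and 51 and 52 after siFOXF1/2, so every Sen library lay above every Pro library in number. The p-c-JUN lists held 24808 and 32136 peaks in Pro cells and 70177 and 93443 in Sen cells. Per 10000 peaks of its list, the windows held 10.5 and 9.02 in Pro cells and 6.13 and 5.56 in Sen cells, so the order turned and every Sen library lay below every Pro library. Of 80 distinct regions, 18 had a peak in all 6 libraries: 5 in the ELN window, 4 in the COL3A1 window, 3 each in the COL1A1 and POSTN windows, 2 in the FN1 window and 1 in the COL1A2 window.

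The strongest p-c-JUN binding of the 6 windows was in that of ELN. The region at 73512384 to 73512868 on chromosome 7 had 100 and 125 fragments in Pro cells, 194 and 169 in Sen cells and 182 and 155 after siFOXF1/2. It placed 61 of 70177 and 94 of 93443 in the Sen lists and 241 and 114 in the Pro lists. The region at 73493570 to 73493891 had 64 and 81 fragments in Sen cells and 40 in each Pro library, and 46 and 47 after siFOXF1/2. The region at 73416886 to 73417257 had 28 and 32 fragments in Sen cells and 31 and 24 in Pro cells, which overlapped. In the RefSeq gene order, the next gene from ELN toward higher coordinates is LIMK1, a kinase of the actin cytoskeleton, and toward lower ones TMEM270. Whether a peak lies in ELN or in a neighbour was not resolved without a gene annotation of hg19.

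In the fibrillar collagen windows, the leading p-c-JUN regions of Sen cells were weaker. The COL1A1 region at 48287042 to 48288349 had 47 and 49 fragments in Sen cells and 55 and 57 in Pro cells, and so was lower in both Sen libraries in raw fragments. Its fold enrichments overlapped, at 8.88 and 8.51 in Sen cells and 8.71 and 10.2 in Pro cells. The next COL1A1 regions, at 48295696 to 48297452 and 48255643 to 48256300, had 23 and 27 and 17 and 27 fragments in Sen cells. The leading COL1A2 region, at 93997498 to 93998383, overlapped the leading FOXF1 region of that window and had 25 and 24 fragments in Sen cells, 14 and 22 in Pro cells and 33 and 21 after siFOXF1/2. In the COL3A1 window, the region at 189841273 to 189841817 had 41 and 36 fragments in Sen cells and 25 and 21 in Pro cells, and the region at 189833852 to 189834484, over the leading FOXF1 region, had 28 and 26 in Sen cells and 15 and 13 in Pro cells. In both COL3A1 regions, each Sen library lay above each Pro library in raw fragments, which are not scaled to depth. The share of regions genome-wide with this order was not counted, so it is not shown to be particular to this window.

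The FN1 window was led by a region at 216275712 to 216276154 with 36 and 42 p-c-JUN fragments in Sen cells, 31 and 24 in Pro cells and 29 and 16 after siFOXF1/2. Its region at 216325241 to 216325896, shared with FOXF1, had 24 and 36 in Sen cells and 15 and 22 in Pro cells. That at 216300985 to 216301246 had 26 in each Sen library. The POSTN window had regions at 38108374 to 38108882 (22 and 24 fragments in Sen cells, 13 and 9 in Pro cells), at 38113849 to 38114714 over the gained FOXF1 region, and at 38192647 to 38193167 (20 and 19 in Sen cells, 22 and 15 in Pro cells). In raw fragments, the first of these stood above Pro cells in both Sen libraries and the last did not, again with no genome-wide share counted.

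In senescence, 10 of 65 p-c-JUN regions in the windows were gained (15.4%), against 28.0% of all regions, and 18 were kept in all 4 libraries (27.7%), against 18.1%. The gained regions were 3 in the COL1A2 window, 3 in the ELN window, 2 in the POSTN window and 1 each in the COL3A1 and FN1 windows. The strongest was at 189831263 to 189831498 in the COL3A1 window, with 35 and 40 fragments and fold enrichments of 9.06 and 10.9. The leading gained regions of the other windows were at 73437401 to 73437881 (ELN, 17 and 15 fragments), 38169331 to 38169832 (POSTN, 17 and 12), 94025961 to 94026190 (COL1A2, 12 and 19) and 216330677 to 216331086 (FN1, 9 and 8).

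The COL1A1 window had no gained region and the only lost one (0.307% genome-wide), at 48250922 to 48251379 with 10 fragments in each Pro library. The difference of Sen minus Pro in log2(peaks + 0.5) was 0.77 ± 0.156 (SE, n = 2 and 2; p = 0.333, exact permutation test, two-sided, which can give no smaller p here). With lists of 24808 peaks the difference turned to −0.32 and gained regions numbered 1. Gained regions numbered 23 without Sen replicate 1 and 17 without Sen replicate 2, and lost regions 2 to 3 without Sen replicate 2 or either Pro library.

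After knockdown of FOXF1 and FOXF2, most p-c-JUN regions of the windows were still called, at shares close to those genome-wide. Both Sen libraries shared 35 regions there, of which 29 and 31 were called in knockdown replicates 1 and 2, against 81.5% and 87.3% genome-wide. Of 78 regions, 3 were lost (4.03% genome-wide), 3 were gained (4.47%) and 28 were kept (35.9%), the last equal to 35.9% of the window regions as well. Of the 6 regions where p-c-JUN met FOXF1 in Sen cells, 5 had a p-c-JUN peak in both knockdown libraries and the COL3A1 region at 189924916 had one in replicate 2 only.

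The lost regions were the COL3A1 region at 189831263 and the COL1A2 region at 94025961, both gained in senescence, and an FN1 region at 216232516 to 216232954 with 25 and 15 fragments in Sen cells and 10 in Pro replicate 2. Both comparisons use the same Sen lists. The gained regions were at 38105175 to 38105547 (16 fragments in each library) and 38182950 to 38183329 (7 and 6) in the POSTN window, and at 48250935 to 48251381 in the COL1A1 window (12 and 7), the region that had been lost in senescence. The log2 difference in peak number was 0.12 ± 0.136 (SE, n = 2 and 2; p = 1, exact permutation test, two-sided) and turned to −0.014 without Sen replicate 1. Leaving out 1 library at a time gave 5 to 12 gained and 4 to 12 lost regions, the most gained without knockdown replicate 2 and the most lost without Sen replicate 1.

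H3K27ac was spread over all 6 windows in both proliferating and senescent cells. The windows held 51 and 56 H3K27ac peaks in Pro cells, 56 and 40 in the first-deposit Sen libraries, 38 and 21 in the second-deposit Sen libraries, 60 and 47 after siFOXF1/2 and 51 and 13 after JUN knockdown. Peaks covered 4.50% and 4.71% of the windows' 800006 bp in Pro cells, 5.10% and 3.17% in first-deposit Sen cells and 5.08% and 3.96% after siFOXF1/2. In covered share these 3 groups overlapped.

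The strongest H3K27ac region of the windows in Sen cells lay at 93997168 to 93998624 on chromosome 7, in the COL1A2 window and over its leading FOXF1 and p-c-JUN regions. It had 72 and 60 fragments in Pro cells, 85 and 37 in first-deposit Sen cells, 34 and 17 in second-deposit Sen cells, 64 and 49 after siFOXF1/2 and 42 and 15 after JUN knockdown. It placed 13 of 84864 in Sen replicate 1 and 80 of 84304 in Pro replicate 1, but 1282 in Sen replicate 2. The next COL1A2 regions, at 94003275 to 94005390 and 93977302 to 93978415, had 67 and 39 and 36 and 31 fragments in those Sen libraries. None of the 3 stood above both Pro libraries in both Sen libraries, and the last lay below the 40 and 41 fragments of Pro cells.

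In the COL1A1 window, the leading regions at 48296834 to 48297864 and 48295134 to 48296190 had 68 and 38 and 61 and 34 fragments in Sen cells, around the 63 and 52 and 60 and 50 of Pro cells. The COL3A1 window was led by 189791127 to 189791884 (26 and 20 fragments in Sen cells) and 189833624 to 189834595 (49 and 29), the latter over the leading FOXF1 region. In the FN1 window, the region at 216324640 to 216326985, over the FOXF1 region held by both Pro and both Sen libraries, had 71 and 39 fragments in Sen cells and 46 and 44 in Pro cells. In the POSTN window, the regions at 38107492 to 38109210 and 38113318 to 38115283 had 65 and 40 and 60 and 36 fragments in Sen cells, against 37 and 32 and 29 and 36 in Pro cells. In raw fragments, the first POSTN region was thus higher in both first-deposit Sen libraries than in both Pro libraries. Its fold enrichments overlapped, at 4.63 and 3.86 in those Sen libraries and 4.81 and 4.48 in Pro cells. The second-deposit Sen libraries had 28 and 24 fragments there, below both Pro libraries. The ELN window was led by 73512240 to 73512868 (45 and 32 fragments in Sen cells, 18 and 33 in Pro cells), over the strongest p-c-JUN region.

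Peaks in these windows were called on a raised local H3K27ac background. Over the first 6 H3K27ac libraries, the median background at window peaks was 1.98 to 3.18 times that of the whole list, against 1.12 to 1.37 times for the p-c-JUN libraries. By gene, it was 2.53 to 3.89 times for COL1A1 and 0.652 to 1.58 times for ELN. A peak on a high background has a low fold enrichment for its fragment number, and peaks of the collagen windows differed in this. In Sen replicate 1, the COL3A1 region at 189844392 to 189844848 had 68 fragments, a background of 36.5 and a fold enrichment of 1.84. The leading COL1A2 region had 85 fragments, a background of 10.1 and a fold enrichment of 7.73 in the same library.

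**Figure D4:**
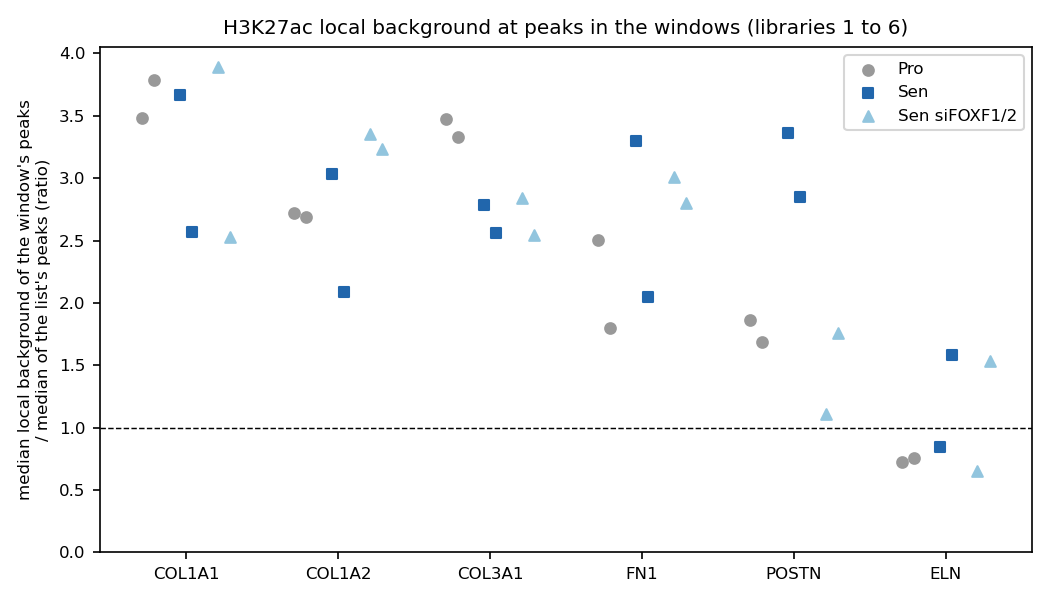
Median local background at the H3K27ac peaks of each window divided by the median over the whole list (vertical axis, ratio) for the 6 genes (horizontal axis) in both Pro (grey circles), first-deposit Sen (dark blue squares) and siFOXF1/2 (light blue triangles) libraries; the dashed line marks equality. COL1A1 points lie at 2.53 to 3.89, while ELN points lie at 0.652 to 1.58.

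Between Pro and first-deposit Sen cells, 1 of 87 H3K27ac regions in the windows was gained (4.51% genome-wide), 6 were lost (9.56%) and 20 were kept (25.9%). The gained region was at 189886940 to 189887389 in the COL3A1 window, with 18 and 16 fragments. The lost regions were at 38191292 to 38192111 (POSTN, 32 and 36 fragments in Pro cells), 189883253 to 189883794 (COL3A1, 35 and 34), 216193782 to 216194434 (FN1, 24 and 23), 216295630 to 216296035 (FN1, 41 and 34), 73437333 to 73437833 (ELN, 9 and 12) and 94069166 to 94069864 (COL1A2, 11 and 10). COL1A1 had none in either class, and at ELN the lost H3K27ac region overlapped the p-c-JUN region at 73437401, which was gained.

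Sen differed from Pro by −0.17 ± 0.249 in log2(peaks + 0.5) (SE, n = 2 and 2; p = 1, exact permutation test, two-sided), and the sign turned to 0.067 without Sen replicate 2 and to 0.21 with lists of 60862 peaks. Leaving out 1 library at a time gave 4 to 15 gained regions, most without Sen replicate 2, and 8 to 17 lost, most without Pro replicate 1, and with all 4 Sen libraries none was gained.

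After siFOXF1/2, H3K27ac was still called at all 8 FOXF1 regions, in both knockdown libraries at each (63.1% of FOXF1 regions genome-wide). The FN1 region had 77 and 55 fragments against 71 and 39 in Sen cells, the leading COL3A1 region 35 and 26 against 49 and 29, and the POSTN region 50 and 42 against 60 and 36. The ranges overlapped at each of these 3. Over the windows, 4 of 86 regions were gained (5.51% genome-wide), 5 were lost (4.26%) and 21 were kept (26.7%).

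The H3K27ac regions gained after siFOXF1/2 were at 48238320 to 48238851 (COL1A1, 13 and 7 fragments), 189817579 to 189818098 (COL3A1, 17 and 12), 216267846 to 216268627 (FN1, 26 and 24) and 216330128 to 216330832 (FN1, 27 and 34). Those lost were at 38172708 to 38173075 (POSTN, 32 and 29 fragments in Sen cells), 189792136 to 189792920 (COL3A1, 20 and 14), 216196477 to 216196745 (FN1, 22 and 19), 216252221 to 216252793 (FN1, 21 and 18) and 73406190 to 73406553 (ELN, 8 and 10). With all H3K27ac libraries joined, the lost COL3A1 region was part of a wider one at 189791127 to 189792920. Both knockdown libraries had a peak in that wider region (11 and 12 fragments). The log2 difference in peak number was 0.16 ± 0.297 (SE, n = 2 and 2; p = 0.667, exact permutation test, two-sided). It turned to −0.010 without knockdown replicate 1, −0.076 without Sen replicate 2 and −0.018 with lists of 60862 peaks, and gained regions numbered 5 to 15 and lost regions 5 to 17 with 1 library left out, the most without knockdown replicate 2 and Sen replicate 2.

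JUN knockdown was compared with Sen libraries of the same deposit, whose lists were shorter. Of 66 regions, 1 was gained (7.66% genome-wide), at 38190921 to 38191940 in the POSTN window with 30 and 16 fragments, 8 were kept (11.8%) and 4 were lost (2.74%). The lost regions were at 48295405 to 48295912 (COL1A1, 18 and 14 fragments in Sen cells), 189866174 to 189866519 (COL3A1, 29 and 21), 216301313 to 216301649 (FN1, 30 and 17) and 94011845 to 94012479 (COL1A2, 11 and 14). Knockdown replicate 1 had a peak near the first, at 48296192 to 48296540 (44 fragments). It also had one (29 fragments) in the wider region, 189865755 to 189867318, that held the COL3A1 loss when all H3K27ac libraries were joined. A loss can thus depend on how peaks were split. At the POSTN region gained here, H3K27ac had been lost between Pro and first-deposit Sen cells, with 32 and 36 fragments in Pro cells.

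Peak number in the windows was 51 and 13 after JUN knockdown and 38 and 21 in its Sen libraries, a log2 difference of −0.13 ± 1.05 (SE, n = 2 and 2; p = 1, exact permutation test, two-sided) that turned to 0.84 without knockdown replicate 2 and 0.29 without Sen replicate 3. Gained regions numbered 27 without knockdown replicate 2, and lost regions 9 without knockdown replicate 1, 7 without Sen replicate 3 and 11 without Sen replicate 4. Of the 8 FOXF1 regions, 2 had H3K27ac in both JUN knockdown libraries (34.5% genome-wide) and 2 in both second-deposit Sen libraries (27.3%).

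The sip300/CBP experiment gave almost no H3K27ac peaks near the matrix genes in either group, with 0 and 2 in its Sen libraries and 3 and 1 after the knockdown. The peaks of its Sen replicate 2 were in the COL1A1 and COL1A2 windows, and those after the knockdown in the COL1A2, FN1 and POSTN windows. None of the 6 regions was gained (2.02% genome-wide), lost (2.69%) or kept (0.49%), and no FOXF1 region of the windows carried a peak in these 4 lists. Its own Sen lists of 8234 and 2046 peaks would hold 5.42 and 1.35 window peaks at the share of the first-deposit Sen lists, 6.59 per 10000. The log2 difference was 1.04 ± 1.31 (SE, n = 2 and 2; p = 0.667, exact permutation test, two-sided) and turned to −0.13 without Sen replicate 1, with 0 to 3 gained and 0 to 2 lost regions when 1 library was left out. A difference was not detectable with lists of this length.

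The share of regions in each class is plotted beside that of all regions on chromosomes 1 to 22 and X.

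**Figure D5:**
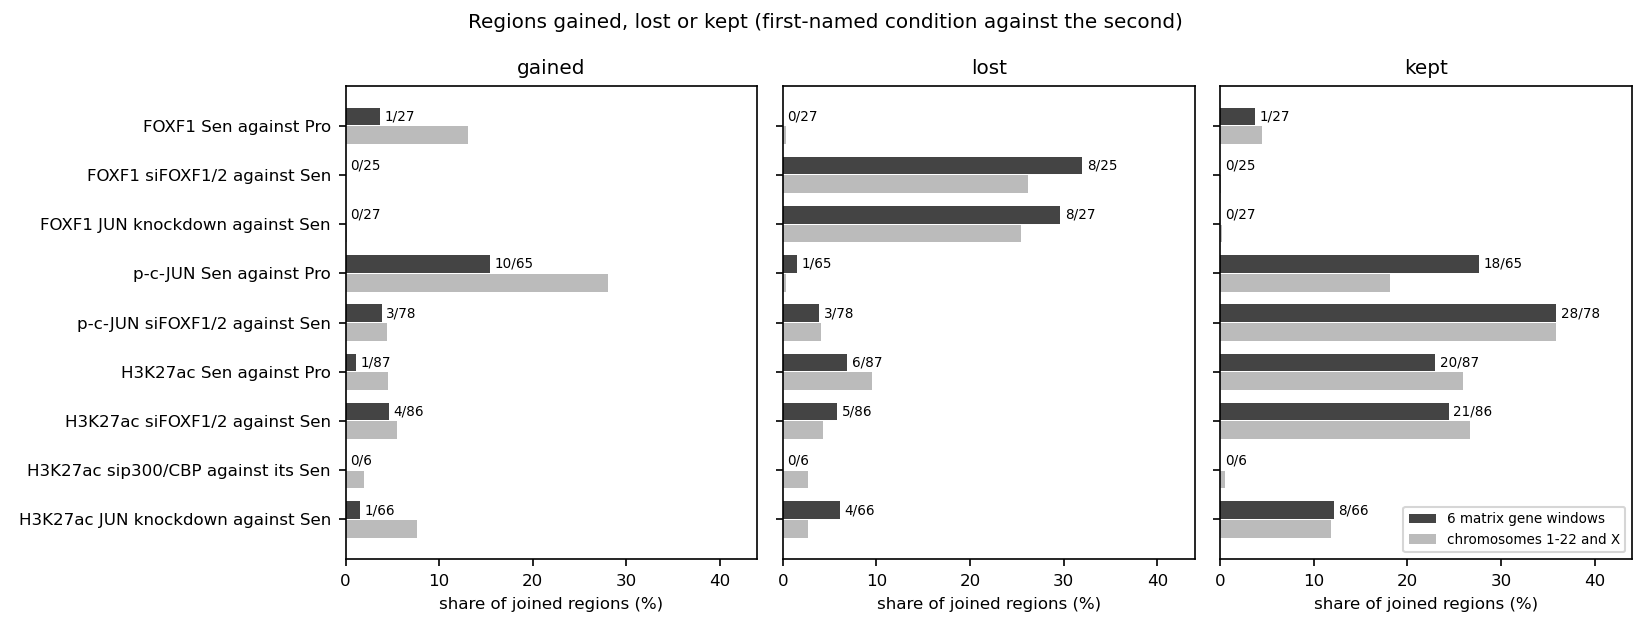
Share of joined regions (horizontal axis, %) that were gained, lost or kept in each comparison (vertical axis), in the 6 windows (dark bars, with counts) and over chromosomes 1 to 22 and X (light bars). The p-c-JUN bars of Sen against Pro show 10 of 65 window regions gained against 28.0% of all regions and 18 of 65 kept against 18.1%. The FOXF1 bars show 8 of 25 lost after siFOXF1/2 against 26.2% of all regions, and 8 of 27 after JUN knockdown against 25.4%. They show 0 kept after either knockdown.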

How the data were processed

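CUT&RUN of FOXF1, p-c-JUN and H3K27ac was deposited as 1 narrowPeak list per library (28 in all, none pooled). Bowtie2 2.3.4.1, SAMtools 1.9, deepTools 3.1.1, MACS2 3.0.0 and hg19 are listed, per the submitters' processing notes, with no parameters. Use of a control library or of the yeast spike-in is not stated. The authors' peak caller wrote a display score, a fold enrichment, and −log10 p and −log10 q for each deposited peak. Ranks and filters were applied within each list, and fold enrichments and fragment numbers set side by side between libraries are not scaled to depth. Peaks off chromosomes 1 to 22 and X (475) were left out. Coordinates are counted from 1.

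Groups came from sample titles. Summit fragments and local background were solved from the deposited fold and −log10 p, taking fold as (fragments + 1)/(background + 1) and a Poisson p. For each of 9 comparisons, overlapping peaks (1 bp or more) of the 4 libraries formed regions, called gained, lost or kept by presence in both libraries of a group. Window peak numbers were compared as log2(peaks + 0.5) by an exact two-sided permutation test over 6 arrangements. Confidence intervals and depth are not given, since mapped reads are unknown. The window genes, the lists and the tests were chosen with earlier results of these data known. Regions named are, per window and antibody, up to 3 of those held by Sen replicates 1 and 2 with the best worst rank, and, per comparison, all gained and lost regions where each class had 6 or fewer, otherwise the best of each window. The 2 FOXF1 peaks after JUN knockdown, the COL3A1 H3K27ac peak with a fold enrichment of 1.84 and the remarks on overlap between named regions were chosen after their values were seen. Promoters matched RefSeq by symbol for 2 of 6 genes. Alternatives were a −log10 q minimum of 5, lists of equal length, joining only at 50% overlap, all 4 H3K27ac Sen libraries, each library left out and a replicate block. On simulated lists, 100% of planted gained and lost regions were recovered with 0 false calls, and 100% of fragment numbers. Python 3.11.15, numpy 2.4.6, pandas 2.3.3 and scipy 1.17.1 were used.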

Additional observations from a re-analysis of the deposited data

How the results depend on the processing

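Over the 27 window results, alternatives gave 139 values counted as the same, 58 counts that moved and 11 reversals of sign. A count was the same within 1.5 times the reported one or with both at 0. A log2 difference was the same if it kept its sign, whatever its size, or fell to 0. The FOXF1 difference after siFOXF1/2 fell to 0 with lists of 133 peaks. The smallest p any fit could give was 0.0667, so no result could reach the threshold of 0.05. With −log10 q of 5 or more, FOXF1 gained 2 regions in senescence and lost 4 after either knockdown, p-c-JUN lost 0 in senescence, and H3K27ac gained 2 and lost 2 after siFOXF1/2 and lost 2 after JUN knockdown. With lists of equal length, the FOXF1 difference in senescence was log2 0.042 (3441 peaks). In such lists FOXF1 lost 0 after siFOXF1/2 (133 peaks) and 0 after JUN knockdown (378 peaks, log2 0.79). The p-c-JUN lists of 24808 peaks gained 1 (log2 −0.32). The H3K27ac lists of 60862 peaks gained 2 and lost 2 in senescence (log2 0.21), and gained 1 and lost 2 after siFOXF1/2 (log2 −0.018). An overlap of 50% gave 2 gained H3K27ac regions in senescence and 2 after siFOXF1/2. All 4 H3K27ac Sen libraries gave 0 gained in senescence, 1 lost after siFOXF1/2 and 2 lost after JUN knockdown.

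With 1 library left out, FOXF1 gained 1 to 14 and lost 0 to 2 regions in senescence, lost 8 to 24 after siFOXF1/2, and gained 0 to 2 and lost 8 to 24 after JUN knockdown. For p-c-JUN the ranges were 12 to 23 gained and 1 to 3 lost in senescence, and 5 to 12 and 4 to 12 after siFOXF1/2 (log2 −0.014 to 0.26). For H3K27ac they were 4 to 15 and 8 to 17 in senescence (log2 −0.41 to 0.067), 5 to 15 and 5 to 17 after siFOXF1/2 (log2 −0.076 to 0.40), 0 to 3 and 0 to 2 for sip300/CBP (log2 −0.13 to 2.20), and 1 to 27 and 5 to 11 after JUN knockdown (log2 −1.09 to 0.84). Leaving out a library lets 1 list decide for its group, which by construction raises the counts.

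Same-numbered libraries are not said to be paired, and their deviations correlated by −0.207 to 0.0271 over 8 comparisons. A replicate block left the p-c-JUN difference in senescence at 0.77 (exact permutation p = 0.5, the smallest with a block). With so few libraries a block could give no call in any of the 8. Crossing the numbers was tried after seeing the data where the correlation was −0.207 (FOXF1 in senescence) and −0.172 (sip300/CBP). It had the same smallest p and could give no call either. For H3K27ac after JUN knockdown no block was possible, because the knockdown libraries (replicates 1 and 2) and those of their Sen cells (3 and 4) share no numbers.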

Other observations

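An H3K27ac region at 48263341 to 48264054 on chromosome 17, in the COL1A1 window, was held by libraries of the second deposit only, with 23 fragments in Sen replicate 3, 16 in Sen replicate 4 and 31 in JUN knockdown replicate 2. The FOXF1 peak of JUN knockdown replicate 2 at 48263693 to 48264244 (25 fragments) overlaps it. No first-deposit library of any antibody had a peak there. The region was singled out after its values were seen.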
